A study of Mus musculus with 20 samples.

Results

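The sarcomeric myosin heavy chains are the motor proteins of the thick filament of striated muscle, and 8 of their genes were followed here in mouse gastrocnemius: Myh1, Myh2, Myh3, Myh4, Myh6, Myh7, Myh7b and Myh8. The genes were taken by name, and each was measured by 1 Affymetrix probe set that carried its symbol alone, so 8 of the 19938 genes tested belong to this family. The gastrocnemius is a calf muscle of mostly fast fibres, sampled as whole tissue from adult male C57BL/6 mice. NCoR1-MKO mice lack the nuclear receptor corepressor NCoR1 in muscle, and CON mice were their controls. PGC-1alpha-mTg mice carry a muscle transgene for PGC-1alpha, a coactivator of transcription, and WT mice were their controls. Each group had 5 arrays. The genotype of the CON mice, the ages, and the promoters that drive the deletion and the transgene are not given in the sources used here.

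Muscle fibres are classed by the heavy chain they use, because the chain sets how fast the motor splits ATP and releases actin. In mice Myh4 encodes the chain of the fastest, most glycolytic IIb fibres, Myh1 that of IIx fibres, Myh2 that of the oxidative IIa fibres and Myh7 that of slow, fatigue-resistant type I fibres and of the heart's beta chain. Myh6 encodes the alpha chain of the heart, Myh3 and Myh8 the embryonic and perinatal chains that precede the adult ones, and Myh7b an ancient chain found in specialised fibres. PGC-1alpha is known for raising mitochondrial and oxidative gene programmes in muscle, and NCoR1 for restraining nuclear receptors.

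The slow and cardiac chains carry microRNA genes within them, named myomiRs, which take part in the control of slow fibre genes. The mature sequences from RefSeq (assembly GRCm38.p6) are shown because their seeds, bases 2 to 8 in capitals, group them.
mmu-miR-208a-3p: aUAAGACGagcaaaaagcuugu
mmu-miR-208b-3p: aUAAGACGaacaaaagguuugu
mmu-miR-499-5p: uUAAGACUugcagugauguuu
The 208 pair share the seed UAAGACG, and miR-499-5p has the seed UAAGACU. Mir208a lies within Myh6 (chr14:54949072-54949093, minus strand), Mir208b within Myh7 (chr14:54975710-54975731, minus strand) and Mir499 within Myh7b (chr2:155622893-155622913, plus strand).

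The fast and developmental genes form a row on chromosome 11 in the order Myh3, Myh2, Myh1, Myh4, Myh8, with 0 other coding genes between neighbours in the RefSeq table. Myh6 and Myh7 are likewise neighbours on chromosome 14. The 250 bases before the RefSeq start of each adult fast gene, and of Myh7, are shown because they belong to the genes whose values the results turn on, Myh1 and Myh7, and to the fast neighbours of Myh1, which were not called. Capitals mark stretches of at least 12 bases found letter for letter in another of the 3 fast windows.
Myh1, chr11:67199852-67200101, plus strand: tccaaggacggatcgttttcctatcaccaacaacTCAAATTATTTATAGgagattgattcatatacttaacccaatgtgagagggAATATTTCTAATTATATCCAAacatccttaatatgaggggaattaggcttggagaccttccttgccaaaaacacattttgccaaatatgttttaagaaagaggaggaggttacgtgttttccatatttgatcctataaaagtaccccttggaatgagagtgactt
Myh2, chr11:67170777-67171026, plus strand: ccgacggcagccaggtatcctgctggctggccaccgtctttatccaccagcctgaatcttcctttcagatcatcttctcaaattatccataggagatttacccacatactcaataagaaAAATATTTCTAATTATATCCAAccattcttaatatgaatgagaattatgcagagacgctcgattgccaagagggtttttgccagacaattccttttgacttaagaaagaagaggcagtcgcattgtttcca
Myh4, chr11:67237562-67237811, plus strand: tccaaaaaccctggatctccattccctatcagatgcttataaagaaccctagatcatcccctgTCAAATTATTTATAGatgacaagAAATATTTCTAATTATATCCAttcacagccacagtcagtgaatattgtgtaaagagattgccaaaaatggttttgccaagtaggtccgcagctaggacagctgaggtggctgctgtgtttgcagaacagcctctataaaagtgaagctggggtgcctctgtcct
Myh7, chr14:54994627-54994876, minus strand, the more upstream of its 2 listed starts: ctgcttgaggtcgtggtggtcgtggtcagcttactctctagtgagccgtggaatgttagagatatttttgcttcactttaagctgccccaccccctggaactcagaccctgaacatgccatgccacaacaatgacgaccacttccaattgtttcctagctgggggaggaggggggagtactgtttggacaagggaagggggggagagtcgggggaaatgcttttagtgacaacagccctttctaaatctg
The fast windows shared 1 run of 20 bases, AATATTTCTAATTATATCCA, which was present in 3 of 32851 such windows, those of Myh1, Myh2 and Myh4. It began 165, 130 and 163 bases before the start in the same order. Myh1 and the perinatal gene Myh8 shared a run of 22 bases, TCAAATTATTTATAGGAGATTG. The Myh7 window shared no stretch of that length with them and has no capitals. Motifs were searched on both strands of the 9 windows of the 8 genes. The letters TATAAA were in 4 of the 9 windows (12.4% of all 32851 windows) and the E-box CANNTG in 7 (66.2%). The MEF2 motif was in 3 of the 9, those of Myh1, Myh4 and Myh8 (2.92% of all windows), and in each it overlapped a TATAAA match. CATTCCT was in 1 (4.51%), AAGGTCA in 1, that of Myh7b (4.08%), and the CArG motif in 1, that of Myh4 (1.47%). A match is a description of letters and not a site.

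Values are RMA expression on the log2 scale, and a change is the difference of group means with its SE. Calls are at an adjusted p under 0.05 from limma with the Benjamini-Hochberg method over all 19938 genes. Arrays within a group correlated at r from 0.992 to 0.998. Array medians were 6.03 to 6.08 in the CON and NCoR1-MKO arrays and 5.84 to 5.91 in the WT and PGC-1alpha-mTg arrays, and each change is therefore read against its own controls. The mean of the 14 fast-fibre genes counted below was 12.4 to 13.24 on every array, as in a muscle of mostly fast fibres. These genes cannot tell the gastrocnemius from another fast muscle. Ppargc1a, the gene of the transgene product, rose by 1.83 in the transgenic arrays (adjusted p = 9.88e-15, limma), as the label says. Ncor1 is not analysed here. The heavy chain genes are close in sequence, and whether a probe set also picks up a relative was not tested.

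Chain names below stand for the RNA of their genes, and protein is not analysed here. In PGC-1alpha-mTg muscle the IIx chain gene rose and the slow chain gene fell, and the other 6 genes did not pass the test. That is 2 of 8 called, beside 28% of all genes tested (11.9% higher and 16.1% lower). With the dimmest 40 percent of genes left out, 5453 of 11963 were called there, 2143 higher and 3310 lower. Shares over all genes, here and below, include dim genes, which were called less often. For lists of bright genes they are thus low marks. In NCoR1-MKO muscle 0 of 8 passed in limma, with 2 of 8 at an unadjusted p under 0.05, beside 2.63% of all genes called (1.31% higher and 1.32% lower). The median change of the 8 was -0.03 in NCoR1-MKO and -0.09 in PGC-1alpha-mTg, against 0.0014 and 0.02 over all genes. In PGC-1alpha-mTg the arrays of Myh1 and Myh7 did not overlap those of WT, which is 2 of 8 genes beside 19.9% of all genes. In NCoR1-MKO 0 of 8 separated from CON, beside 4.17% of all genes.

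**Figure D1:**
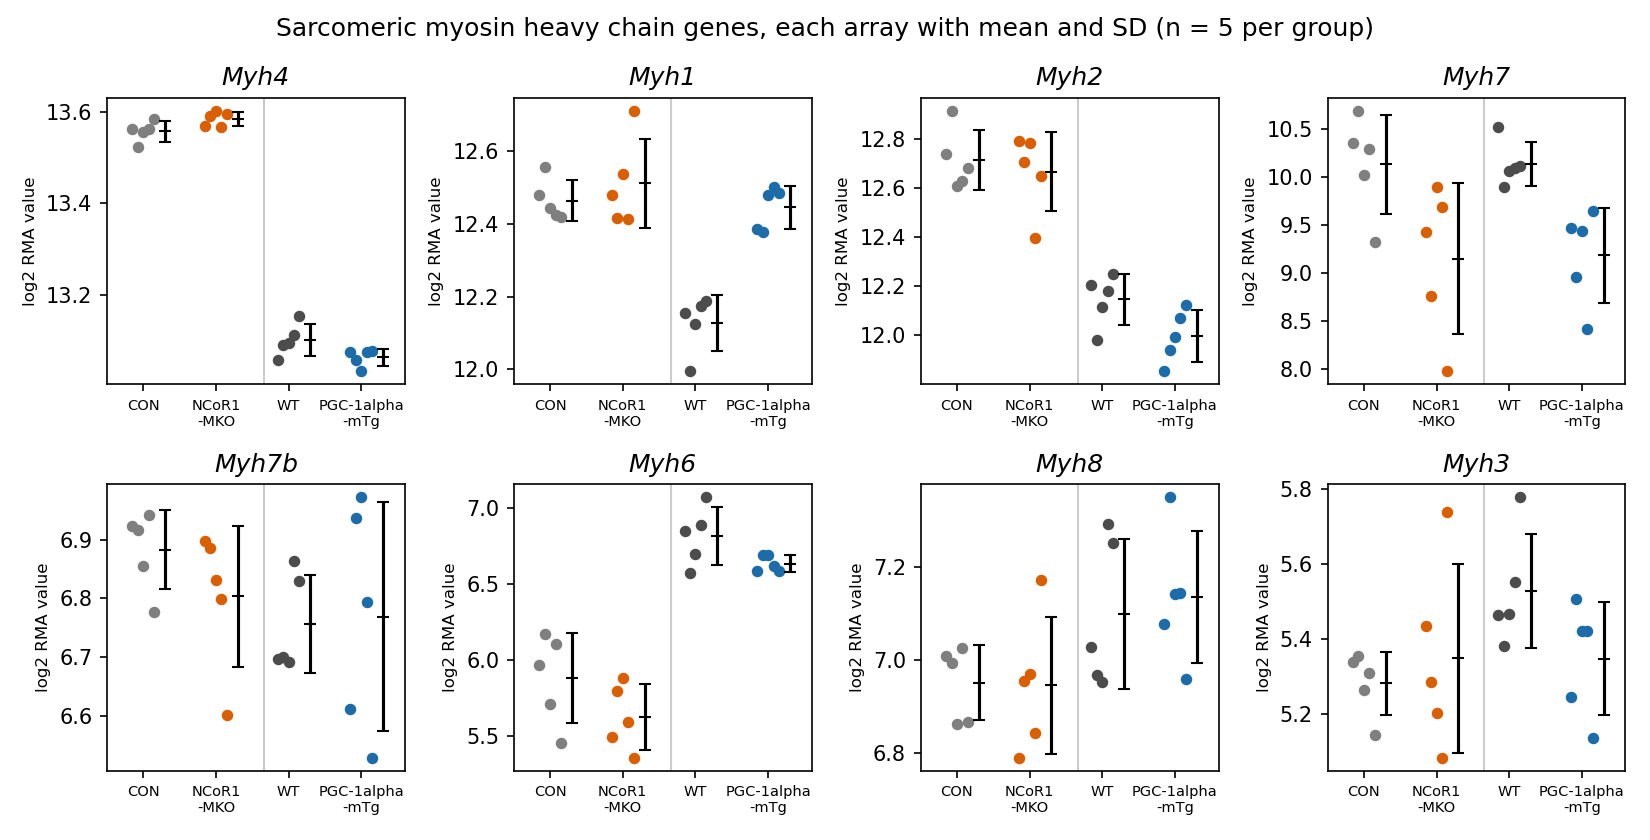
RMA expression (log2, y axis, its own range in each panel) of the 8 heavy chain genes in the 4 groups (x axis). Coloured points are arrays and the black mark with bars is the mean with its SD (n = 5). The PGC-1alpha-mTg points lie above all WT points for Myh1, at 12.38 to 12.50 against 11.995 to 12.19, and below them for Myh7, at 8.41 to 9.64 against 9.89 to 10.52.

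The slow chain gene Myh7 had the widest spread and the largest changes of the family. The WT arrays read 10.52, 9.89, 10.06, 10.10 and 10.11, and the PGC-1alpha-mTg arrays 9.46, 8.95, 9.43, 8.41 and 9.64. Every PGC-1alpha-mTg array was below every WT array, and replicate 4 was the lowest. The means were 10.14 ± 0.23 in WT and 9.18 ± 0.50 in PGC-1alpha-mTg (SD, n = 5 each). Myh7 fell by 0.96 (SE 0.30), which is 1.94-fold lower, with a 95% interval from -1.57 to -0.34 (adjusted p = 0.0181, limma). The call depended on single arrays. Without WT replicate 1 the change was -0.86 (adjusted p = 0.0518, limma) and without PGC-1alpha-mTg replicate 4 it was -0.76 (adjusted p = 0.0645, limma). Over the 20 fits that each left out 1 array the adjusted p ran from 0.0045 to 0.0645. In whole muscle, fewer slow fibres and less Myh7 RNA per slow fibre cannot be told apart.

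In the other model the CON arrays of Myh7 read 10.35, 10.69, 10.02, 10.29 and 9.32, and the NCoR1-MKO arrays 9.43, 8.75, 9.89, 9.69 and 7.97. CON replicate 5 was the low control, and 3 of the 5 NCoR1-MKO arrays were above it, so the groups overlapped. The means were 10.13 ± 0.51 and 9.15 ± 0.78 (SD, n = 5 each). The change was -0.98 (SE 0.30, 95% interval -1.60 to -0.37), which did not pass the test over all genes (adjusted p = 0.0877, limma). Single arrays decided this as well. Without CON replicate 5 the change was -1.19 and called (adjusted p = 0.0359, limma), and without NCoR1-MKO replicate 3 it was -1.17 and called (adjusted p = 0.0454, limma). Without NCoR1-MKO replicate 5 it was -0.69, and the largest adjusted p over the 20 fits was 0.230.

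The slow chain gene thus had changes of like size in both models, called in 1 of them. The unadjusted p was 0.00323 in NCoR1-MKO and 0.00403 in PGC-1alpha-mTg. The adjusted values differ because many more genes were called in PGC-1alpha-mTg, which lowers the adjusted p that goes with a given p. The difference between the changes of Myh7 was 0.03 (SE 0.42), with a 95% interval from -0.84 to 0.90 (adjusted p = 0.978, limma). That interval spans differences close to the size of either change.

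The IIx chain gene Myh1 gave the most reproducible change. The WT arrays read 12.15, 11.995, 12.13, 12.17 and 12.19, and the PGC-1alpha-mTg arrays 12.39, 12.38, 12.48, 12.50 and 12.49. The groups did not overlap, and each was tight around its mean, 12.13 ± 0.08 and 12.45 ± 0.06 (SD, n = 5 each). Myh1 rose by 0.32 (SE 0.05), or 1.25-fold, with a 95% interval from 0.21 to 0.43 (adjusted p = 7.99e-05, limma). The call was kept in every one of the 20 fits without 1 array, at 0.29 to 0.34.

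In NCoR1-MKO the same gene stayed close to its controls. The CON arrays read 12.48, 12.56, 12.45, 12.42 and 12.42, and the NCoR1-MKO arrays 12.48, 12.42, 12.54, 12.41 and 12.71. The groups overlapped, with NCoR1-MKO replicate 5 the highest. The change was 0.05 (SE 0.05, 95% interval -0.07 to 0.16, adjusted p = 0.868, limma). The change of Myh1 was larger in PGC-1alpha-mTg than in NCoR1-MKO by 0.27 (SE 0.08, 95% interval 0.11 to 0.43, adjusted p = 0.0172, limma). It was the 1 gene of the 8 whose changes differed between the models by this test, beside 15.2% of all genes (6.66% higher and 8.5% lower).

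The IIa chain gene Myh2 did not pass in either model. Its WT arrays ran from 11.98 to 12.25 and its PGC-1alpha-mTg arrays from 11.85 to 12.12, so the ranges overlapped. The change was -0.15 (SE 0.07, 95% interval -0.30 to 0.0048, adjusted p = 0.149, limma). Bringing all 20 arrays to the same quantiles moved it to -0.22 and past the threshold (adjusted p = 0.0281, limma), while the other alternatives gave -0.19 to -0.11 with no call. In NCoR1-MKO the arrays ran from 12.40 to 12.79 against 12.61 to 12.91 in CON, a change of -0.05 (SE 0.07, 95% interval -0.20 to 0.11). The sign of the Myh2 value in PGC-1alpha-mTg was thus opposite to that of Myh1, its neighbour on the chromosome.

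The IIb chain gene Myh4 had the smallest group SDs of the 8 genes. Its probe set was at percentile 99.9 to 100 of the genes on every array, and whether so bright a signal was saturated was not tested. Its arrays ran from 13.52 to 13.58 in CON, 13.57 to 13.60 in NCoR1-MKO, 13.06 to 13.15 in WT and 13.03 to 13.08 in PGC-1alpha-mTg. The group SDs were 0.02 to 0.03. The changes were 0.03 (95% interval -0.04 to 0.10) in NCoR1-MKO and -0.04 (95% interval -0.11 to 0.03) in PGC-1alpha-mTg, and neither passed (adjusted p = 0.872 and 0.430, limma). These intervals hold for the signal as measured.

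**Figure D2:**
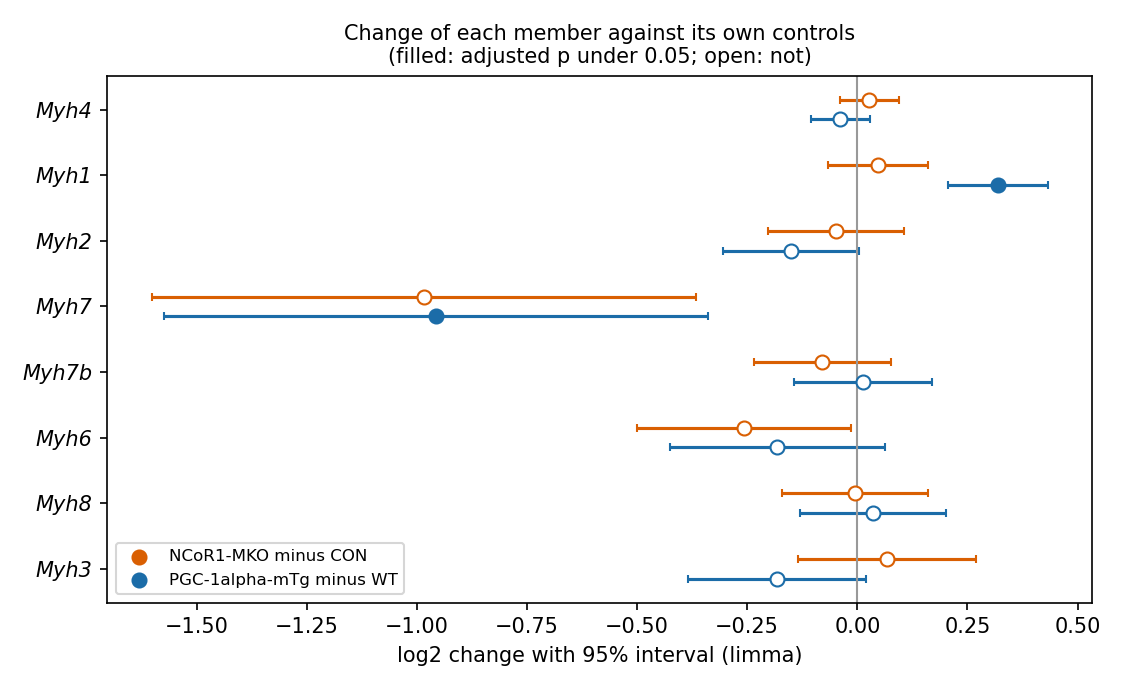
Log2 change of each heavy chain gene (rows) against its own controls (x axis), with the limma 95% interval, in NCoR1-MKO (orange) and PGC-1alpha-mTg (blue). Filled points passed the test. The intervals for Myh7 lie below 0 in both models, at -1.60 to -0.37 and -1.57 to -0.34, and Myh1 is the 1 filled point above 0.

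The cardiac alpha chain gene Myh6, next to Myh7, had negative values in both models with no call. In CON the arrays read 5.96, 6.17, 5.71, 6.10 and 5.46, and in NCoR1-MKO 5.49, 5.80, 5.88, 5.59 and 5.36. All NCoR1-MKO arrays were below the CON maximum, and the groups overlapped. The change was -0.26 (SE 0.12, unadjusted p = 0.0392, adjusted p = 0.376, limma). In PGC-1alpha-mTg the arrays ran from 6.59 to 6.69 against 6.57 to 7.07 in WT, a change of -0.18 (SE 0.12, adjusted p = 0.284, limma). The heart chain also differed between the control groups: after all 20 arrays were brought to the same quantiles it averaged 5.80 ± 0.28 in CON and 6.93 ± 0.19 in WT (SD, n = 5 each), with no overlap between the cohorts in the deposited values. Cohort, array run and genotype background cannot be told apart there.

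The developmental chains showed no call in either model. Myh3, the embryonic chain gene, ran from 5.08 to 5.78 over all 20 arrays, with changes of 0.07 (adjusted p = 0.913, limma) in NCoR1-MKO and -0.18 (adjusted p = 0.186, limma) in PGC-1alpha-mTg. Its highest NCoR1-MKO array, replicate 5 at 5.74, was above all CON arrays. Myh8, the perinatal chain gene, ran from 6.79 to 7.35, with changes of -0.0056 and 0.04. NCoR1-MKO replicate 5 was the highest of its group for Myh1, Myh3 and Myh8, and the lowest for Myh6, Myh7 and Myh7b. Myh7b ran from 6.53 to 6.97, with changes of -0.08 and 0.01 (adjusted p = 0.818 and 0.926, limma). The background of a probe set was not given, so whether Myh3, at percentile 26.4 to 40.6 of the genes on an array, and Myh6, at 32.1 to 62.3, were above it cannot be told here.

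The microRNA genes inside the slow and cardiac chains were measured for Mir208a and Mir499, and Mir208b was not measured. Both read low, Mir208a at group means of 4.03 to 4.36 and Mir499 at 3.89 to 4.03. Neither passed in either model. Mir208a was at 0.05 in NCoR1-MKO and 0.15 in PGC-1alpha-mTg (adjusted p = 0.0574, limma; from 0.0386 to 0.137 over the fits without 1 array), and Mir499 at -0.06 and 0.01. The probe sets cover the genes and not the mature forms printed above.

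The orders of the group levels were taken after all 20 arrays had been brought to the same quantiles, which places the cohorts on 1 scale but keeps the cohort and the genotype confounded. Myh1 ran from 12.24 in CON and 12.26 in NCoR1-MKO to 12.40 in WT and then 12.67 in PGC-1alpha-mTg. The CON and NCoR1-MKO means differed by less than their SD. Myh7 ran from 9.00 in NCoR1-MKO and 9.37 in PGC-1alpha-mTg to 9.96 in CON and 10.30 in WT. The neighbouring pairs, NCoR1-MKO with PGC-1alpha-mTg and CON with WT, were each within 1 SD of the more variable group. Myh2 was lowest in PGC-1alpha-mTg at 12.20 and otherwise 12.41 to 12.47, and these 3 did not differ beyond their SD of 0.12 to 0.15. Myh4 lay between 13.29 and 13.39 in all groups.

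Slow myosin works with its own light chains, troponins and tropomyosin, and 14 of these slow-fibre genes were counted. In PGC-1alpha-mTg 6 of 14 fell and 2 rose, beside 16.1% of all genes lower and 11.9% higher, with a median change of -0.54. In NCoR1-MKO 2 fell and 0 rose, beside 1.32% and 1.31% of all genes, with a median of -0.30 and 8 at an unadjusted p under 0.05. The genes of both light chains of slow fibres fell in both models. Myl2, the slow regulatory light chain, fell by 0.91 in NCoR1-MKO and by 0.81 in PGC-1alpha-mTg (adjusted p = 0.0045 and 0.0013, limma). Myl3, the slow essential light chain, fell by 0.66 and by 0.68 (adjusted p = 0.0229 and 0.0020, limma), and its NCoR1-MKO call was lost without CON replicate 1, CON replicate 2 or NCoR1-MKO replicate 5 (adjusted p up to 0.0766, limma). Tnnt1, slow troponin T, was at -0.65 without a call in NCoR1-MKO and fell by 0.72 in PGC-1alpha-mTg (adjusted p = 0.124 and 0.0120, limma). Tpm3, slow tropomyosin, and Atp2a2, the slow calcium pump, fell in PGC-1alpha-mTg by 0.60 and 0.61. The Tpm3 call was lost without WT replicate 1, 4 or 5 or PGC-1alpha-mTg replicate 2 or 4 (adjusted p up to 0.126, limma).

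Some slow genes had large values without a call, and some went the other way. Tnnc1, slow and cardiac troponin C, was at -1.09 and -0.77, and Tnni1, slow troponin I, at -0.92 and -0.48, with adjusted p from 0.0715 to 0.207 (limma). Without CON replicate 5, the low control of Myh7, Tnni1 and Tnnt1 also passed in NCoR1-MKO (adjusted p down to 0.0272 and 0.0420, limma), and Tnni1 did so without NCoR1-MKO replicate 3. Casq2, the slow calcium store protein, rose in PGC-1alpha-mTg by 0.52 (adjusted p = 0.0011, limma) and was at 0.06 in NCoR1-MKO. Myoz2, a Z-disc protein of slow fibres that binds calcineurin, fell by 0.66 in PGC-1alpha-mTg and was at 0.04 in NCoR1-MKO, and the difference of -0.70 passed (adjusted p = 0.0026, limma). It was the 1 slow gene of 14 whose changes differed between the models, beside 15.2% of all genes. Actn2 rose by 0.16 in PGC-1alpha-mTg, a call lost without WT replicate 2 or 3 or PGC-1alpha-mTg replicate 3, 4 or 5 (adjusted p up to 0.134, limma). Under quantile normalization of the 20 arrays or centring on their medians, the slow list gave 1 higher and 6 lower of 14.

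Fast myosin has partners of its own, and 14 of these fast-fibre genes were counted. In PGC-1alpha-mTg 10 of 14 fell and 0 rose, beside 16.1% of all genes lower and 11.9% higher, with a median change of -0.12. These are bright genes, and with the dimmest 40 percent left out 3310 of 11963 genes were lower there. In NCoR1-MKO 1 rose and 1 fell, beside 1.31% and 1.32% of all genes, with a median of -0.0043. Some of these genes read above Myh4, such as Atp2a1 at 13.97 and Actn3 at 13.67 in CON. Whether such signals were saturated was not tested. Myoz3 and Mylk2 fell most in PGC-1alpha-mTg, by 0.90 and 0.72. Mylk2 encodes the kinase of the fast regulatory light chain, and that light chain, Mylpf, fell by 0.12 there and rose by 0.14 in NCoR1-MKO (adjusted p = 0.0122 and 0.0300, limma), a difference of -0.25. Both NCoR1-MKO calls were fragile: Mylk2, at -0.20, lost its call in 17 of 20 fits without 1 array, and Mylpf in 7, all of them fits without a CON or NCoR1-MKO array. Actn3, the fast alpha-actinin, Casq1, the fast calcium store protein, and Tnni2, fast troponin I, fell by 0.28, 0.21 and 0.16 in PGC-1alpha-mTg. Myh1, the fast chain of IIx fibres, rose in the same muscle.

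**Figure D3:**
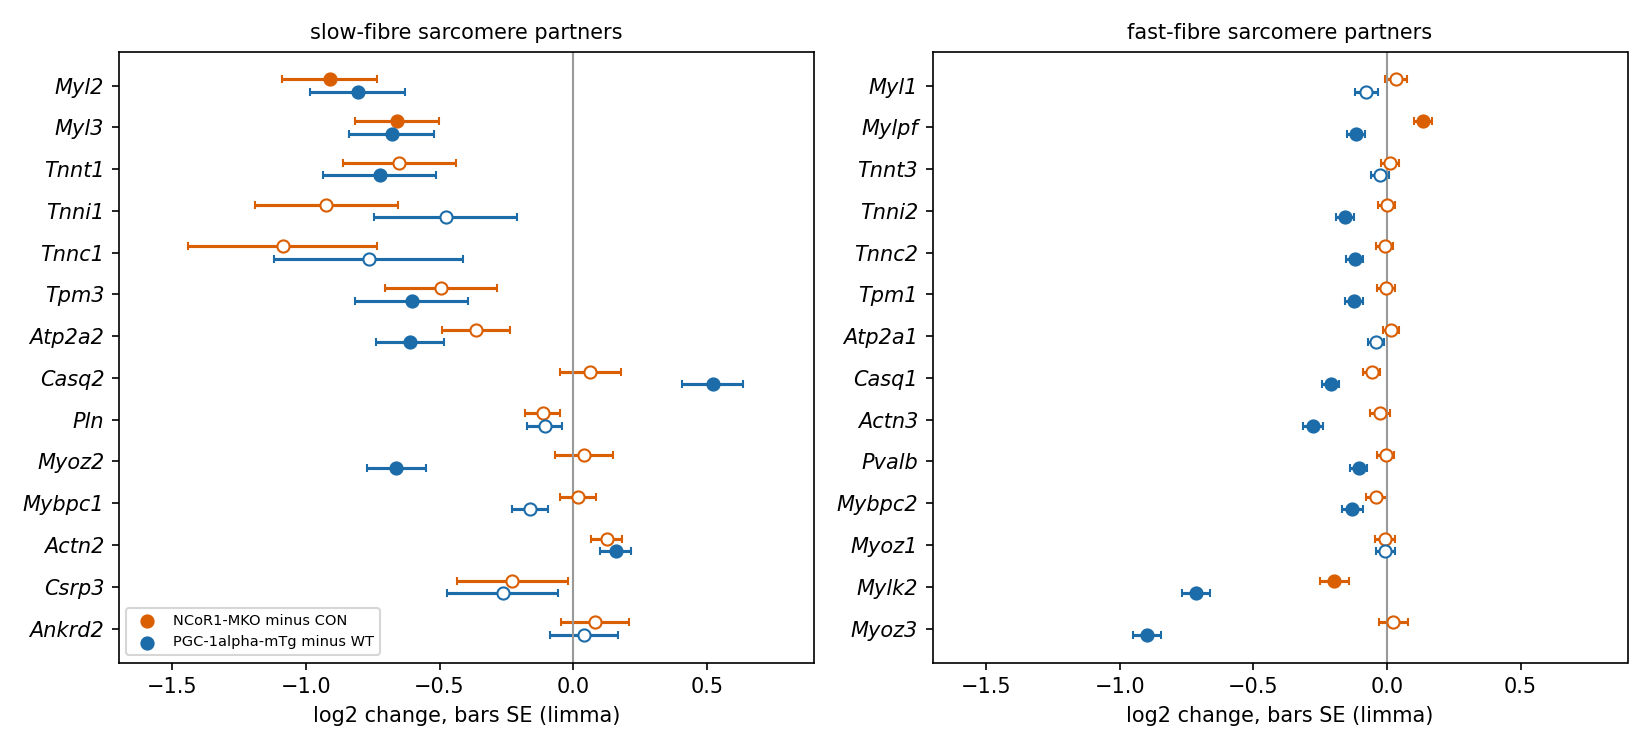
Log2 change (x axis, bars SE) of the 14 slow-fibre and 14 fast-fibre partner genes (rows) in NCoR1-MKO (orange) and PGC-1alpha-mTg (blue), with filled points past the test. The slow genes spread to -1.09, with 2 filled in NCoR1-MKO and 8 in PGC-1alpha-mTg, and 10 of the fast genes are filled below 0 in PGC-1alpha-mTg.

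Genes of developing or cardiac muscle that accompany Myh3, Myh8 and Myh6 gave mixed counts, 1 higher and 0 lower of 10 in NCoR1-MKO and 1 higher and 4 lower in PGC-1alpha-mTg. Over all genes the shares were 1.31% higher and 1.32% lower in the former, and 11.9% and 16.1% in the latter. Actc1, cardiac actin, rose by 0.69 in NCoR1-MKO and fell by 1.65 in PGC-1alpha-mTg. Myl4, the embryonic and atrial light chain, Tnnt2, cardiac troponin T, and Ncam1, an adhesion molecule, fell by 0.46, 0.37 and 0.49 in PGC-1alpha-mTg. Mybph, a myosin binding protein, rose by 0.71 there and was at 0.52 without a call in NCoR1-MKO (adjusted p = 0.0836, limma; 0.0362 without WT replicate 2). The embryonic and perinatal heavy chains themselves passed in neither model.

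Heavy chains need chaperones to fold and ligases to be turned over. Of 14 such genes measured, 7 fell and 0 rose in PGC-1alpha-mTg, beside 16.1% of all genes lower and 11.9% higher, with a median change of -0.16, and 0 passed in NCoR1-MKO in limma, with 1 at an unadjusted p under 0.05. Unc45b, the muscle myosin chaperone, fell by 0.32, and Hsp90aa1, its partner chaperone, by 0.21, a call lost without WT replicate 1 or PGC-1alpha-mTg replicate 1 or 3 (adjusted p up to 0.0836, limma). Trim63, the ligase MuRF1 that marks thick filament proteins for degradation, and its relative Trim54 fell by 0.64 and 0.25. Cavin4, a muscle caveolar protein, and Ttn, the titin that spans the sarcomere, fell by 0.41 and 0.16. Obsl1, a cytoskeletal linker protein, fell by 0.21. The changes differed between the models for 6 of these 7, all but Hsp90aa1, and for Myom2, an M-band protein of fast fibres. The 7 were picked by their call in PGC-1alpha-mTg, so the share of 6 is shaped by that choice. Over the whole list 7 of 14 were called for the difference, beside 15.2% of all genes. The Ttn difference of -0.14 lost its call in 16 of 20 fits without 1 array.

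Transcription regulators that set the choice of heavy chain were counted in a list of 33 measured genes. In PGC-1alpha-mTg 15 fell and 1 rose, the latter Ppargc1a itself, beside 16.1% of all genes lower and 11.9% higher. Their median change was -0.16. In NCoR1-MKO 1 rose and 1 fell, beside 1.31% and 1.32% of all genes, with a median of -0.01. Among the factors of fast fibres, Eya1 and Eya4, cofactors of transcription, fell by 0.46 and 0.54 in PGC-1alpha-mTg, and Sox6, a repressor of slow genes, by 0.43. Eya3, a relative of Eya1 and Eya4, was at 0.01 there without a call (adjusted p = 0.895, limma). Eya4 also fell in NCoR1-MKO, by 0.28 (adjusted p = 0.0115, limma), where Eya1 and Sox6 were both at -0.11 without a call.

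Other members of the list that fell in PGC-1alpha-mTg follow, and their relatives Nfatc1, Nfatc4, Mef2d, Tead4 and Hdac4 were not called there. The calcineurin-responsive factors Nfatc2 and Nfatc3 fell by 0.67 and 0.40, Mef2a and Mef2c by 0.22 and 0.15, and Tead1, which binds CATTCCT-type elements, by 0.31. Prox1, a factor of slow muscle, and Thra, the thyroid hormone receptor alpha, fell by 0.25 and 0.29, and Hdac9, a corepressor of MEF2, by 0.41. The remaining 4 falls were Hdac5, Pura, Sp3 and Bhlhe40, and the Pura call was lost in 8 of 20 fits without 1 array. In NCoR1-MKO the 1 rise was Ppargc1b, the relative of PGC-1alpha, at 0.51 (adjusted p = 0.0193, limma), whose call was lost without CON replicate 3 or NCoR1-MKO replicate 3 or 4 (adjusted p up to 0.0642, limma).

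The other myosin heavy chains, those of non-muscle and smooth muscle cells and of extraocular muscle, were 6 genes. Of these, 1 was called higher and 1 lower in PGC-1alpha-mTg, beside 11.9% and 16.1% of all genes. In PGC-1alpha-mTg Myh9, a non-muscle chain, rose by 0.20 (adjusted p = 0.0161, limma) and Myh10, another non-muscle chain, fell by 0.37 (adjusted p = 0.0043, limma). In NCoR1-MKO 0 of 6 passed in limma, beside 2.63% of all genes, with 1 at an unadjusted p under 0.05. Myh10 was at 0.29 there. Its changes differed between the models by -0.66 (adjusted p = 0.0012, limma), the 1 difference called among the 6, beside 15.2% of all genes.

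Within the groups, Myh7 varied from array to array together with other slow genes. Deviations of each array from its group mean were compared over the 20 arrays, and the 3 genes most like each heavy chain were taken from all others tested, so the correlations are high by choice and no p is given. By their quantiles, the arrays of a cohort appear to have been normalized together. The genes most like Myh7 were Tnnc1, Tnni1 and Tpm3, at Pearson r of 0.981, 0.981 and 0.963 and Spearman rho of 0.968, 0.947 and 0.965. Without the 2 arrays farthest from the median r was 0.965, 0.965 and 0.952. Within the CON and NCoR1-MKO arrays r was 0.992, 0.996 and 0.978, and within the WT and PGC-1alpha-mTg arrays 0.959, 0.939 and 0.970. The lowest arrays of Myh7 against their group means were NCoR1-MKO replicate 5 at -1.18, CON replicate 5 at -0.82 and PGC-1alpha-mTg replicate 4 at -0.77.

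**Figure D4:**
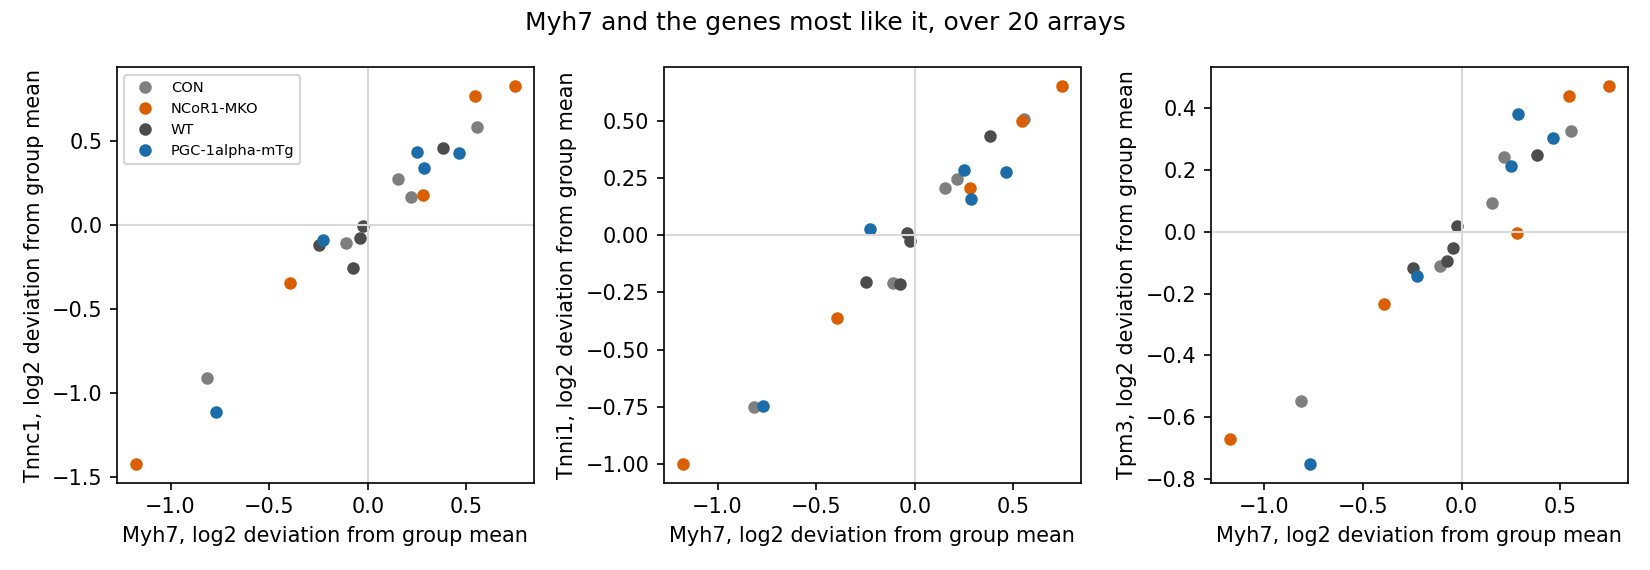
Deviation from the group mean (log2) of Tnnc1, Tnni1 and Tpm3 (y axes) against that of Myh7 (x axes), 1 point for each of the 20 arrays, coloured by group. The points follow a line in all 4 groups (r 0.981, 0.981 and 0.963), and the lowest point is NCoR1-MKO replicate 5, at -1.18 for Myh7.

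The other heavy chains had different nearest genes. For Myh2 they were Ldhb, the heart-type lactate dehydrogenase subunit, Rmdn1 and Qk, at r of 0.917, 0.880 and 0.876, and r was 0.861, 0.853 and 0.826 without the 2 farthest arrays. For Myh1 they were Prdx3, a mitochondrial peroxiredoxin, Lamp2, a lysosomal membrane protein, and Bgn, the matrix protein biglycan, at 0.855, 0.852 and 0.844. Lamp2 held less evenly, with r of 0.977 in the CON and NCoR1-MKO arrays and 0.578 in the others. The nearest genes were Rims4 for Myh7b (0.915), Ces1e for Myh8 (0.871), Epdr1 for Myh6 (0.867), Tma7 for Myh3 (0.832) and Ror1 for Myh4 (0.827).

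Among the heavy chains themselves the deviations were related most for Myh3 with Myh8, at r = 0.734. Next came Myh1 with Myh3 at 0.631, with 0.808 in the CON and NCoR1-MKO arrays and 0.331 in the others. Myh1 and Myh2 stood at 0.576 over 20 arrays, but at 0.399 in the CON and NCoR1-MKO arrays and 0.908 in the others. Myh6 and Myh7 stood at 0.559, with 0.701 and 0.115 in the cohorts. These are descriptions over arrays, and the pairs share the normalization of the array.

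Genes of other cell types were read beside these results, and the calls in PGC-1alpha-mTg stand beside 11.9% of all genes higher and 16.1% lower. Those in NCoR1-MKO stand beside 1.31% higher and 1.32% lower, so a count of 0 in a short list says little. The 11 cardiomyocyte markers had summed levels, given as their mean, of 5.91 to 6.06 in the CON and NCoR1-MKO arrays and 5.82 to 6.04 in the others, with 0 called in NCoR1-MKO in limma (0 at an unadjusted p under 0.05) and 1 higher and 1 lower in PGC-1alpha-mTg. Tnni3, Tnnt2, Myl7 and Mybpc3 are on that list and also among the developmental and cardiac genes counted above. Of 9 endothelial markers 6 rose in PGC-1alpha-mTg and 1 in NCoR1-MKO, and their mean level was 8.34 to 8.56 in WT against 8.68 to 8.83 in PGC-1alpha-mTg, and from 8.66 to 8.88 in CON and 8.85 to 9.19 in NCoR1-MKO. Of 12 tendon and fibroblast markers 4 fell in PGC-1alpha-mTg, with a mean of 8.39 to 8.67 in WT and 8.22 to 8.37 there. Of 9 satellite cell markers 4 fell, with 6.25 to 6.33 in WT and 6.07 to 6.18 in PGC-1alpha-mTg. The 6 spindle markers had means of 6.63 to 6.70 in WT against 6.65 to 6.75 in PGC-1alpha-mTg, with 1 called higher and 1 lower there, and of 6.85 to 7.05 in CON and 6.996 to 7.08 in NCoR1-MKO. In NCoR1-MKO 0 tendon, satellite cell or spindle markers passed in limma, with 1, 0 and 1 at an unadjusted p under 0.05. The other lists held 6 adipocyte, 6 macrophage, 4 nerve and 2 blood markers, of which 1, 0, 0 and 0 were higher and 0, 0, 1 and 0 lower in PGC-1alpha-mTg, and 0 were called in NCoR1-MKO (0 at an unadjusted p under 0.05). NCoR1-MKO replicate 5, the lowest array of Myh7, had the highest mean of its group for macrophage markers, 8.11 against 7.502 to 7.725 in the other 4 arrays, and for adipocyte markers, 8.33 against 7.59 to 7.93. CON replicate 1 was the highest of its group for adipocyte markers at 8.42 and for blood markers at 8.44, against 7.54 to 7.82 and 6.64 to 7.32 in the other 4 arrays. RMA values have no zero, so no marker is at 0. The part of these cells in the changes of Myh1 and Myh7 was not tested.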

How the data were processed

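Expression was measured on Affymetrix Gene 1.0 ST arrays, 1 for each of 20 gastrocnemius samples, from 250 ng of total RNA, per the labels' protocols. The deposited values are on the log2 scale, made by the authors with RMA (background correction, quantile normalization, summary over probes), and RMA and Partek are named without versions in the submitters' processing notes. Mean gaps between the quantiles of 2 arrays reached 0.063 within a cohort and 0.169 to 0.228 between cohorts, so changes are taken within cohorts, and levels are set side by side across cohorts only after all 20 arrays were brought to the same quantiles. No genome build was given in the sources used here, and coordinates and sequences are RefSeq's for GRCm38.p6. Of 35556 probe sets, 21789 had 1 gene symbol in the platform's table, 1621 had more than 1 and 12146 had none here. RefSeq held 21698 of the first kind by Entrez number. For each gene the brightest probe set over 20 arrays was kept, giving 19938 genes.

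From these values, limma 3.58.1 in R 4.3.3 fitted the 4 group means to all 20 arrays, with contrasts of each model against its controls and of the difference, two-sided, adjusted by the Benjamini-Hochberg method over 19938 genes. The method was tested on simulated data. Whether each array is a separate mouse is not stated in the labels, and p-values then cover the spread between samples alone, which may be technical. Arrays have no sequencing depth, and their number, 5 per group, limits the precision. Of 169 genes wanted for 16 lists, 154 were measured. Named genes are the 8 heavy chains, list genes called in a comparison (the 2 with the largest change where fewer than 3 were called) and the 3 genes most like each heavy chain, and not every gene this takes is named. The 8 genes, the lists and the tests were chosen with earlier results of these data known. Lists are described by counts with no test of the list. Alternatives were quantile normalization across 20 arrays, centring on the array median, a filter that drops the dimmest 40 percent, averaging probe sets, a fit to 10 arrays alone, a trended and robust eBayes, array weights, a replicate block and leaving out each array.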

Additional observations from a re-analysis of the deposited data

Results flagged for a closer look

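In 204 groups of 5 arrays, those of the 51 genes looked at this way, 7 held an array far from the other 4 by Dixon's test, where chance gives about 1 in 20 groups. No heavy chain gene was among the 7. These arrays were Tnni1 in PGC-1alpha-mTg replicate 4 at 7.89, Casq2 in PGC-1alpha-mTg replicate 5 at 8.82, Mybph in WT replicate 2 at 8.89 and Nfatc2 in WT replicate 5 at 7.13. The others were Mef2a in WT replicate 1 at 11.15, Ppargc1b in NCoR1-MKO replicate 5 at 8.14 and Myh9 in NCoR1-MKO replicate 3 at 8.77. PGC-1alpha-mTg replicate 4, the far array of Tnni1, was also the lowest of its group for Myh7.

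The change in PGC-1alpha-mTg differed from that in NCoR1-MKO for 26 of the 51 genes by limma's test of the difference, at an adjusted p under 0.05. Most of the 51 were named because they were called in a comparison, so this share is set by that choice and is not compared with all genes. Among the heavy chains this was Myh1 alone, at 0.27. Among the slow and fast partners the differences on the log2 scale were -0.70 for Myoz2, -0.92 for Myoz3, -0.52 for Mylk2, -0.25 for Mylpf, -0.25 for Actn3, -0.16 for Tnni2 and -0.15 for Casq1. Those of Casq1, Eya4 and Ttn lost their call without 1 array in 1, 15 and 16 of 20 fits. Among the developmental genes the differences were -2.34 for Actc1, -0.36 for Tnnt2 and -0.65 for Ncam1, and among the folding and turnover genes -0.41 for Unc45b, -0.58 for Trim63, -0.31 for Trim54, -0.50 for Cavin4 and -0.14 for Ttn. Among the regulators they were -0.35 for Eya1, -0.26 for Eya4, -0.32 for Sox6, -0.47 for Nfatc2, -0.42 for Nfatc3, -0.18 for Mef2c, -0.58 for Hdac9, 1.93 for Ppargc1a and -0.73 for Ppargc1b. The non-muscle chain gene Myh10 differed by -0.66. Differences were also called for genes outside the 51, among them Obsl1, Myom2 and Hdac5, so these lists are not complete.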

How the results depend on the processing

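The Myh1 rise in PGC-1alpha-mTg and its difference from NCoR1-MKO kept their direction and call in every alternative run, at 0.27 to 0.34 and 0.24 to 0.32. The Myh7 fall in PGC-1alpha-mTg kept its call in all but the fits without WT replicate 1 or PGC-1alpha-mTg replicate 4, and ran from -1.07 to -0.76 over the fits without 1 array. No clear pairing by replicate number was seen. Same-numbered arrays correlated in their deviations from the group means at -0.132 to 0.04 for CON with NCoR1-MKO. For WT with PGC-1alpha-mTg this was -0.232 to 0.196, and 0 of 5 and 2 of 5 in the same order matched their own number best. Such weak correlations cannot show that the samples were unpaired. With the replicate block, Myh7 in NCoR1-MKO was called (-0.98, adjusted p = 0.0232, limma, against 0.0359 to 0.230 without 1 array and 0.0623 to 0.183 in the others), so 1 of 8 heavy chains passed there. The block also gave 5 slow and 0 fast partner calls in NCoR1-MKO, 4 folding calls for the difference, and 370 genes called in NCoR1-MKO against 525, and it changed no other heavy chain call. For NCoR1-MKO, the slow partners had 1 call with only the 10 arrays and 1 with trend and robust, the fast partners 0 after centring and 1 with only the 10 arrays, the folding genes 1 with trend and robust, and the regulators 4 after quantile normalization, 4 without the dimmest genes and 4 with trend and robust. For the difference, the slow partners had 2 after quantile normalization, 2 without the dimmest genes and 2 with array weights. The other myosins had 1 call in PGC-1alpha-mTg with the mean of probe sets. Without 1 array, the calls in NCoR1-MKO ran from 0 to 1 for the heavy chains, 1 to 4 for the slow partners (1 without CON replicate 1, CON replicate 2 or NCoR1-MKO replicate 5, 4 without CON replicate 5), 0 to 2 for the fast partners, 1 to 2 for the developmental genes and 1 to 3 for the regulators. In PGC-1alpha-mTg they ran from 1 to 2 for the heavy chains and 0 to 1 for the microRNA genes, and for the difference from 1 to 2 for the slow partners. Values near 0 turned sign: Myh4 in NCoR1-MKO to -0.0036 after quantile normalization, the Myh7 difference to -0.21 with array weights, and Myh7b in PGC-1alpha-mTg to -0.0084 after centring. Without 1 array, Myh1 in NCoR1-MKO ran from -0.0027 to 0.072, Myh2 there from -0.080 to 0.019, Myh3 from -0.031 to 0.13 and Myh8 from -0.062 to 0.033. In PGC-1alpha-mTg, Myh7b ran from -0.038 to 0.073 and Myh8 from -0.017 to 0.085, and the differences of Myh7 and Myh8 from -0.27 to 0.23 and from -0.012 to 0.099. None of these was called. The causes were not tested. Signal over background was not given, which limits what the dim chains can show.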
